A study of Mus musculus with 12 samples.

Results

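The variable segments of the T cell receptor alpha and beta chains were described in RNA of mouse mandibular lymph nodes. Members were the Trav and Trbv genes annotated as functional variable segments in GENCODE M21, matched by Ensembl gene ID. Of 163 Trav and Trbv symbols, 33 were pseudogenes and 130 carried that annotation. A further 10, whose symbols mark use with the delta chain as well, were left out. That gave 120 members among 56941 gene IDs, 98 Trav and 22 Trbv. The rule read the annotation alone and no measured value, but it was set with earlier results of these data known.

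Each alpha beta T cell carries a receptor assembled by joining a variable segment to joining (and, in the beta chain, diversity) segments and a constant region. The germline piece that a cell picks is kept by its descendants, so the share of each segment in the RNA of a node reports how the T cells present, weighted by their receptor RNA, are spread over segments. Stretches that differ between copies of a Trav segment can be very short. Most of the mouse alpha locus was duplicated and then duplicated again, leaving copies marked d and n. A few segments mark T cells with nearly fixed receptors, such as Trav11 in invariant natural killer T cells and Trav1 in mucosal-associated invariant T (MAIT) cells.

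The study sensitized mice to the contact allergen dinitrofluorobenzene (DNFB) on 3 successive days, with 100 µl of a 0.5% solution on the shaved abdomen, and asked how loss of the microRNA miR-451a affects the delayed-type hypersensitivity (DTH) response. KO_DTH nodes came from miR-451a knockout mice challenged on the left ear with 20 µl of 1% DNFB on day 9 and taken 24 h later, on day 10. KO_se nodes came from knockout mice that were sensitized only and taken on day 9. WT_DTH and WT_se nodes were the matching wild-type groups. Each of the 4 groups held 3 libraries, and all 12 came from sensitized mice. Strain, age and the way the knockout was made are not given in the labels, and neither is whether the libraries of a group came from separate animals. P-values therefore measure only the spread between these libraries. Within groups it was larger than counting noise, at 40.6 to 330 chi-squared units per degree of freedom between libraries, so none was a repeat of another within sampling noise. Challenge cannot be told apart from the extra day before harvest.

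Libraries held 36.9 to 58.4 M estimated counts each, of which 6998 to 15642 lay on the members. Mir451a was not analysed here, so the knockout label has no check from the targeted gene. The nodes carried T and B cell transcripts, and also RNA of salivary gland, which lies beside them. The 19 salivary genes listed took 7.59 ± 2.97% of counts in KO_DTH, 4.67 ± 2.04% in KO_se, 2.60 ± 0.685% in WT_DTH and 10.6 ± 3.73% in WT_se (SD, n = 3 each). A list of 8 B cell genes took 0.249 ± 0.0600% in KO_DTH, 0.256 ± 0.0524% in KO_se, 0.308 ± 0.0429% in WT_DTH and 0.147 ± 0.0193% in WT_se. Both shares move with the groups, and their part in the results on levels was not tested beyond the fits named beside them.

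The Trav members lie on chromosome 14 and the Trbv members on chromosome 6. In locus order 7 Trav segments come before the d copies, then 30 d copies, 28 n copies and 33 segments after them. Transcripts were short, with a median of 376.5 bases in Trav and 372 in Trbv. Counts were low in Trav, with a median over segments of 27.9 counts per library and a highest segment mean of 84.5. Trbv segments had a median of 333 counts, so single Trbv segments were measured more precisely than single Trav segments. None of the 120 was at 0 in every library, and 28 were at 0 in at least 1. The filter on low counts kept 113 for testing, 92 Trav and 21 Trbv, and left out Trav9d-2, Trav13d-3, Trav13d-4, Trav13n-3, Trav18, Trav23 and Trbv21.

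How well segments can be told apart depends on their sequence. Of the 98 Trav segments 82 had another Trav segment with at least 95% identity, in 27 groups of copies, and 36 had a copy identical over the whole aligned transcript. No Trbv segment had such a copy, and the closest Trbv pair, Trbv13-2 and Trbv13-3, was 90.59% identical. The ends of the segments on which the results below turn are shown here because they join the part of the receptor that meets antigen. They are the last 30 bases of GENCODE M21 transcripts (GRCm38), 5′ to 3′, and capitals mark the codon of the conserved cysteine that precedes the junction.
Trbv13-1: catctttgtacttcTGTgccagcagtgatg
Trbv13-2: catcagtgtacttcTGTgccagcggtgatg
Trbv13-3: cagctgtatatttcTGTgccagcagtgatg
Trbv3: gtgtacttcTGTgccagcagcttagccaca
Trbv12-1: tctgctatgtacttcTGTgccagctctctc
Trbv12-2: tctgccgtgtacttcTGTgccagctctctc
Trav14n-1: actcagctacctacttcTGTgcagcaagtg
Trav14d-1: actcagctacctacttcTGTgcagcaagtg
Trav14-1: actcagccacctacttcTGTgcagcaagtg
Trav10n: attcagccatctacttcTGTgcagcaagca
Trav10: attcagccatctacttcTGTgcagcaagca
Trav16n: agcagtatatttcTGTgctatgagagaggg
Trav16: agcagtatatttcTGTgctatgagagaggg
Trav11: acactgccacctacatcTGTgtggtgggcg
Trav14n-1 and Trav14d-1 share all of their 30 bases, as do Trav10n and Trav10, and Trav16n and Trav16. The Trbv13 and Trbv12 segments differ within this stretch.

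Elsewhere in the transcript the copies differ at scattered bases. Trav14n-1 and Trav14d-1 differed at 0 of 415 aligned bases, while Trav14n-1 and Trav14-1 differed at 19 of 399. Trav10n differed from Trav10d at 3 of 343 bases and from Trav10 at 6 of 343, and Trav16n from Trav16 at 6 of 412. Windows of 25 bases around such a position show what a read must cover to separate them, with capitals at the differing bases.
Trav14n-1: cccatggtaccaGcagttccctggg
Trav14-1: cccatggtaccaAcagttccctggg
Trav10n: gccaaagacttaCagttttAttgga
Trav10d and Trav10: gccaaagacttaTagttttGttgga
Trav16n: aaaatgcaacagTGggtcattattc
Trav16: aaaatgcaacagAAggtcattattc
The deposited counts of identical copies often tracked each other. Over 18 pairs of identical segments and 12 libraries, 103 of 216 pairs of values (47.7%) lay within 1 count of each other, against 118 of 2496 (4.7%) for pairs with 80 to 95% identity. In other pairs and libraries identical copies had unequal counts, and the reason was not tested. Trav14d-1, for example, held 0.880% of Trav counts in WT_se replicate 3, where its identical copy Trav14n-1 held 4.13%. Values of single Trav segments with such copies are therefore uncertain, and joined copies are given beside the called Trav segments.

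**Figure D1:**
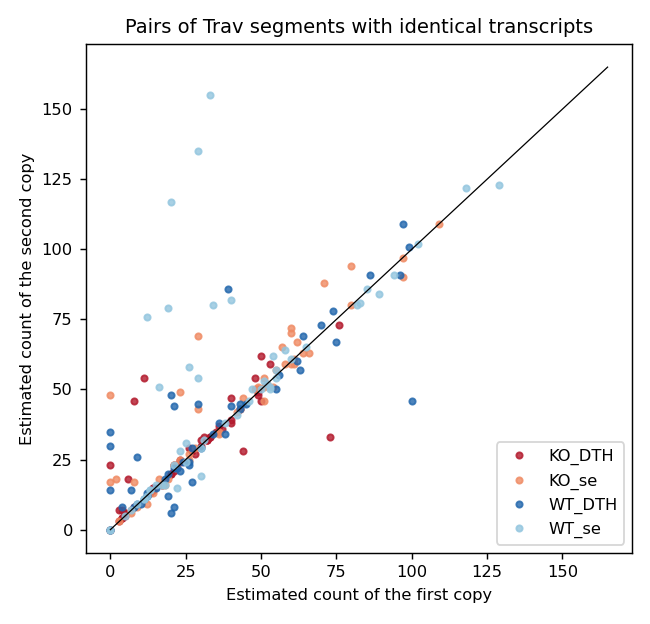
Estimated counts of the 2 members of each of the 18 pairs of identical Trav segments, 1 point per pair and library, with the line of equality. Of the 216 points 103 lie within 1 count of equality, and the points far from the line are pairs whose 2 copies had unequal counts.

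Beta segment use was broad in every library. On a scale of counts per base of transcript, Trbv13-2 led with a mean share of 11.5% of all Trbv over the 12 libraries, ranging between 9.66 and 13.1%. Trbv16 followed with 8.26%, Trbv12-2 with 8.04%, Trbv3 with 7.12% and Trbv13-3 with 6.54%. The ranges of Trbv16 and Trbv12-2 overlapped, as did those of Trbv3, Trbv13-3, Trbv29 (6.26%), Trbv1 (6.17%) and Trbv13-1 (6.15%), so the order among these neighbours is not fixed by the data. At the low end were Trbv23 with 0.522%, Trbv30 with 0.402% and Trbv21 with 0.0453%.

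Several Trbv segments have known partners in biology. Trbv13-2, Trbv29 and Trbv1 are the beta segments most often paired in mouse invariant natural killer T cells, and Trbv13 and Trbv19 segments are favoured by mouse MAIT cells. Conventional T cells use all of them too. Cells that use Trbv12-1, Trbv12-2, Trbv16, Trbv15 or Trbv26 are deleted in the thymus of mouse strains in which particular endogenous retroviral superantigens are presented. All of these 5 were in use in every library, at per-base shares between 7.02 and 9.37% for Trbv16, 7.12 and 9.67% for Trbv12-2, 4.05 and 6.82% for Trbv15, 3.05 and 5.92% for Trbv12-1 and 2.81 and 4.28% for Trbv26. Trbv31, which lies beyond the beta constant genes in the opposite orientation, held 3.53%.

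The alpha segments that mark the fixed receptors were rare in every group. Trav11 and its identical copy Trav11d together held 0.268, 0.364 and 0.403% of Trav counts in KO_DTH and 0.518, 0.903 and 0.137% in KO_se. In WT_DTH they held 0, 0.421 and 0.866%, and in WT_se 0.641, 0.231 and 0.587%. All 4 groups overlapped, and neither copy passed any test of level or share. Trav1 held 0 to 0.587% over the 12 libraries, with a share of 0 in 1 KO_DTH, 1 WT_DTH and 2 WT_se libraries.

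Evenness of use was similar in the 4 groups for beta. The effective number of Trbv segments, which is the number of equally used segments that would give the same Shannon diversity, was 17.8 ± 0.244 in KO_DTH, 17.9 ± 0.182 in KO_se, 17.8 ± 0.129 in WT_DTH and 18.0 ± 0.0939 in WT_se (SD, n = 3 each). For Trav it was 73.2 ± 2.69 in KO_DTH, 73.4 ± 0.680 in KO_se, 70.2 ± 3.60 in WT_DTH and 70.3 ± 0.737 in WT_se. With copies of at least 95% identity joined, the mean Trav number became 25.7 in KO_DTH, 26.0 in KO_se, 23.9 in WT_DTH and 23.1 in WT_se. The 5 most used segments of a library held 39.1 to 43.5% of Trbv counts and 12.9 to 16.3% of Trav counts. The coefficient of variation of a segment's share over the 12 libraries had a median of 13.7% in Trbv and 40.8% in Trav.

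**Figure D2:**
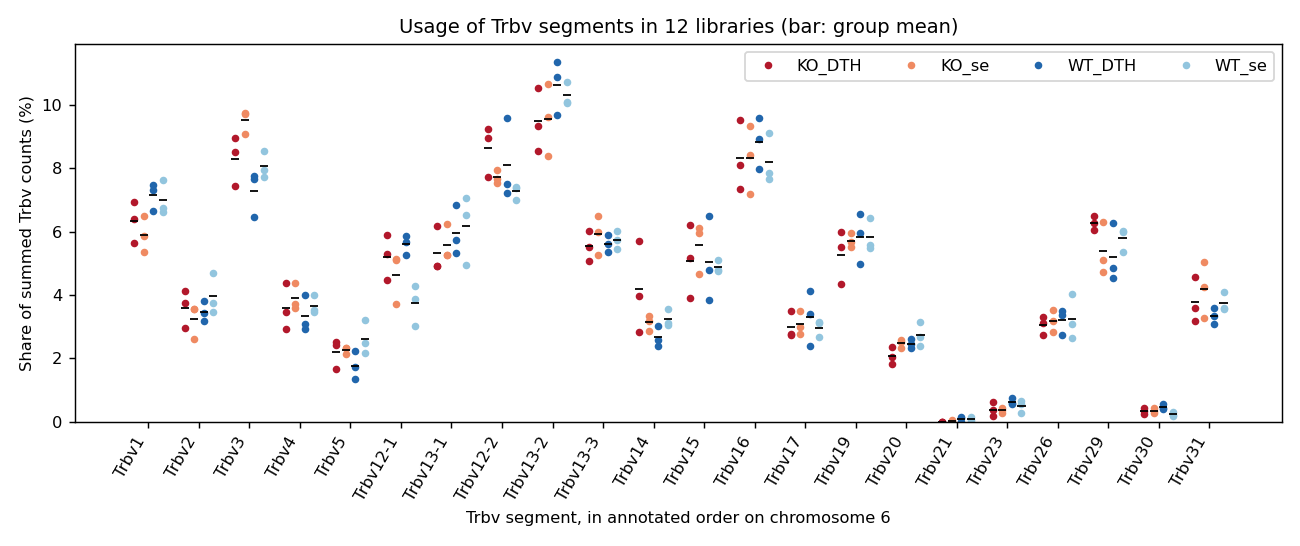
Share of Trbv counts (%) held by each of the 22 Trbv segments, with 1 point per library and a bar for the mean of each group. The 4 groups overlap for most segments, and Trbv13-2, Trbv16, Trbv3 and Trbv12-2 are high in all 12 libraries.

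Challenge went with lower levels of beta segment RNA in both genotypes. Levels are CPM, which are counts per M of a library size scaled between libraries by the trimmed mean of M-values (TMM). Summed Trbv stood at 124, 123 and 140 CPM in KO_DTH, against 184, 200 and 241 CPM in KO_se. In wild type it stood at 109, 164 and 117 CPM in WT_DTH, against 225, 245 and 202 CPM in WT_se. Every challenged library lay below every unchallenged library of its genotype. Summed Trav followed, at 57.7 ± 3.34 CPM in KO_DTH and 82.4 ± 10.6 CPM in KO_se, and at 56.8 ± 11.2 CPM in WT_DTH and 104 ± 13.6 CPM in WT_se (SD, n = 3 each). In RNA of a whole node, fewer T cells, less receptor RNA per cell and more RNA of other cells cannot be told apart.

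**Figure D3:**
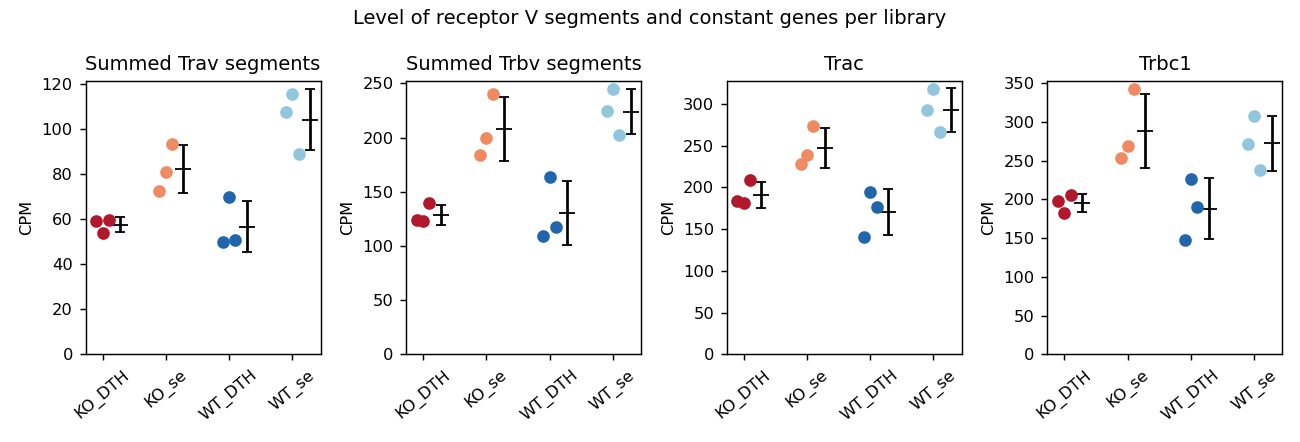
Summed Trav, summed Trbv, Trac and Trbc1 levels (CPM) in each library, with the mean ± SD of each group of 3. The challenged libraries sit below the unchallenged ones of their genotype in summed Trav and summed Trbv.

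In wild type the fall reached most beta segments one by one. Of the 113 tested members 26 fell and 0 rose in WT_DTH relative to WT_se by edgeR's quasi-likelihood test (adjusted p below 0.05 over all genes tested), where 18.7% of all genes were called in either direction, 9.77% being higher and 8.97% lower. The 26 were 17 of 21 Trbv and 9 of 92 Trav segments. The median log2 fold change was -0.78 over the 21 Trbv and -0.84 over the 92 Trav, against -0.01 over all genes. Trav segments thus had a median about as low, with fewer counts each and a larger median SE, 0.52 against 0.21 for Trbv.

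Trbv13-3 stood at 6.12, 8.78 and 6.92 CPM in WT_DTH, against 12.9, 13.3 and 12.2 CPM in WT_se. The groups did not overlap, and the log2 difference was -0.82 ± 0.16 (SE, adjusted p = 0.00373). Trbv3 stood at 8.46, 12.6 and 7.59 CPM in WT_DTH, against 17.8, 18.9 and 17.3 CPM in WT_se, again without overlap (-0.92 ± 0.19, adjusted p = 0.0051). Trbv5 had the lowest log2 value of the called Trbv segments, -1.35 ± 0.30 (adjusted p = 0.00734), with 1.48, 2.83 and 2.60 CPM in WT_DTH and 7.23, 6.11 and 4.36 CPM in WT_se. Trbv13-1 (-0.86 ± 0.18, adjusted p = 0.0053) and Trbv29 (-0.95 ± 0.21, adjusted p = 0.00723) also fell. Each of these 5 remained called when any 1 of the 12 libraries was left out.

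The remaining called Trbv segments were Trbv1, Trbv2, Trbv4, Trbv12-2, Trbv13-2, Trbv14, Trbv16, Trbv17, Trbv19, Trbv20, Trbv26 and Trbv31, with log2 values between -0.64 (Trbv12-2) and -1.04 (Trbv14). Trbv4 and Trbv26 each lost the call in 9 of 12 fits that left out 1 library. Trbv17 and Trbv31 each lost it in 5, and the rest of these in 2 to 4. The 4 that were not called were Trbv12-1 (-0.20 ± 0.18, adjusted p = 0.515), Trbv15 (-0.76 ± 0.26, adjusted p = 0.0622), Trbv23 (-0.47 ± 0.51, adjusted p = 0.596) and Trbv30 (0.18 ± 0.47, adjusted p = 0.855). Trbv23 and Trbv30 were among the 3 Trbv segments with the smallest shares, while Trbv12-1 was not.

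Of the 92 tested Trav segments 9 fell, a rate close to the 8.97% of all genes called lower there. They were Trav14-1, Trav4n-4, Trav14n-2, Trav5-4, Trav14n-1, Trav10, Trav14d-2, Trav6n-7 and Trav9-2. Trav14-1 stood at 0.887, 1.06 and 0.545 CPM in WT_DTH, against 3.43, 4.39 and 1.83 CPM in WT_se (-1.95 ± 0.40, adjusted p = 0.00537). Trav4n-4 stood at 0.500, 0.826 and 0.457 CPM in WT_DTH, against 2.19, 1.53 and 2.79 CPM in WT_se (-1.86 ± 0.39, adjusted p = 0.00562). Neither pair of groups overlapped. The Trav14 copies made up 4 of the 9, and their counts are not independent.

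Several of these values depend on how the counts were divided between identical copies. Trav4d-4, the identical copy of Trav4n-4, had 22, 43 and 9 counts in WT_DTH, against 12, 55 and 20 counts in WT_se, where Trav4n-4 had 76, 57 and 117 counts. Joined, the pair was at -1.44 ± 0.37 (adjusted p = 0.0167) in place of -1.86 for Trav4n-4 alone. Joined pairs of Trav14n-2 with Trav14d-2 (-1.99 ± 0.38, adjusted p = 0.00333) and of Trav14n-1 with Trav14d-1 (-0.80 ± 0.23, adjusted p = 0.0268) also fell, while Trav6n-7 with Trav6d-7 did not pass (-0.78 ± 0.27, adjusted p = 0.0571). With all copies of at least 95% identity joined, an alternative chosen after seeing the data, the groups that fell included the 8 Trav14 copies (-1.13 ± 0.17, adjusted p = 0.000771), the 8 Trav9 copies that hold Trav9-2 (-0.89 ± 0.24, adjusted p = 0.0206), the 3 Trav10 copies (-1.13 ± 0.25, adjusted p = 0.00771) and the 3 copies that hold Trav5-4 (-1.29 ± 0.30, adjusted p = 0.0103).

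In the knockout 9 of 113 members fell and 0 rose in KO_DTH relative to KO_se, where 9.67% of all genes were called in either direction, 5.81% being higher and 3.86% lower. They were Trbv13-3, Trbv3, Trbv20, Trbv13-1, Trbv13-2, Trbv16, Trbv19, Trbv17 and Trav7-4, with a median over the 21 Trbv of -0.72 and over the 92 Trav of -0.49. Trbv13-3 stood at 6.29, 6.79 and 8.41 CPM in KO_DTH, against 11.96, 11.965 and 12.63 CPM in KO_se, without overlap (-0.77 ± 0.16, adjusted p = 0.00935). Trbv3 stood at 11.1, 9.17 and 11.9 CPM in KO_DTH, against 16.7, 19.4 and 23.5 CPM in KO_se, also without overlap (-0.89 ± 0.19, adjusted p = 0.0103). These 2 remained called when any 1 library was left out. Trbv13-2, the most used segment, stood at 11.58, 13.02 and 11.96 CPM in KO_DTH, against 15.4, 21.3 and 23.2 CPM in KO_se (-0.71 ± 0.19, adjusted p = 0.0326). Trbv13-2 lost the call in 5 of 12 fits that left out 1 library, Trbv17 in 10 and Trav7-4 in 11. The 3 copies that hold Trav7-4 did not pass when joined (-0.69 ± 0.27, adjusted p = 0.13), while the 8 Trav14 copies fell (-0.59 ± 0.17, adjusted p = 0.0453).

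The 8 Trbv segments that fell in the knockout all fell in wild type too, where 17 of 21 were called. The 2 comparisons share no library, but both use the spread estimated over all 12 libraries, so the overlap of calls is not independent. The difference between the genotypes in the effect of challenge was tested directly. It was called for 0 of 113 members by edgeR's quasi-likelihood test, with 2 at an unadjusted p below 0.05, and for 0 by DESeq2, where edgeR called 2.11% of all genes, 1.67% as higher and 0.439% as lower. The larger count in wild type is thus not shown to be a difference between genotypes.

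**Figure D4:**
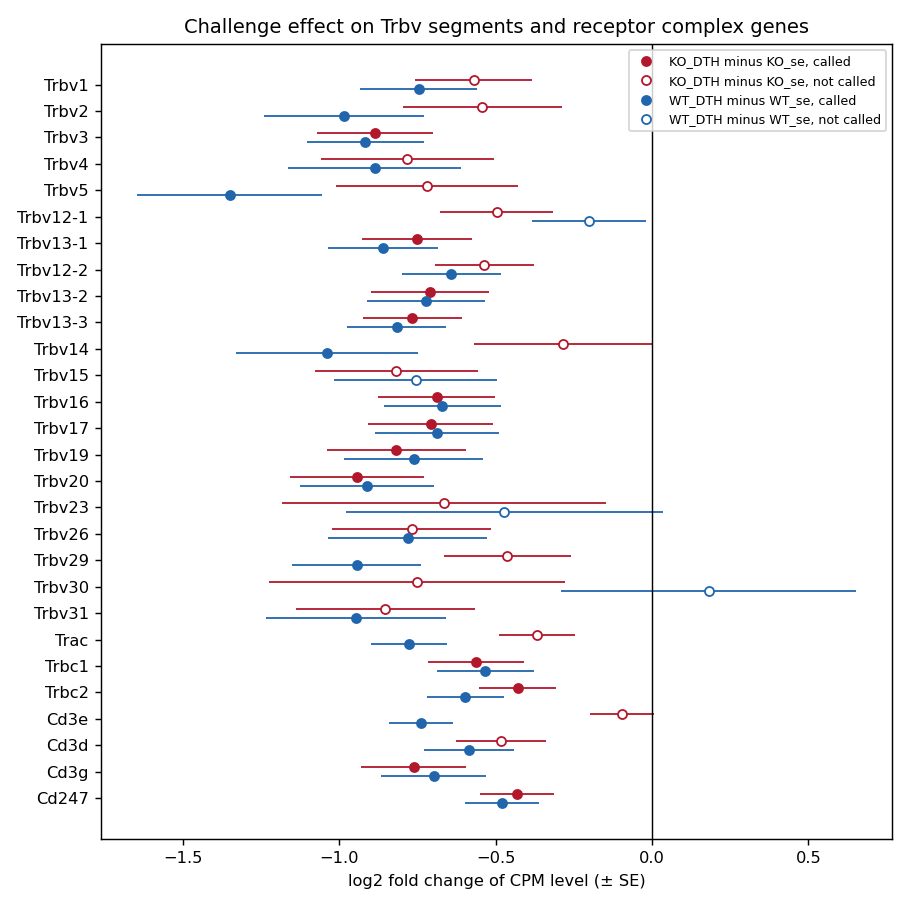
Log2 difference in level ± SE for challenge in the knockout (KO_DTH minus KO_se, red) and in wild type (WT_DTH minus WT_se, blue), for the 21 tested Trbv segments and genes of the receptor complex. Filled points passed the test. Of the Trbv segments 8 passed in the knockout and 17 in wild type, and all points but Trbv30 in wild type lie below 0.

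Genes that complete the receptor fell as well. In wild type Trac, the alpha constant region, fell by 0.78 ± 0.12 on the log2 scale (adjusted p = 0.00102), Trbc2, a beta constant region, fell by 0.60 ± 0.12 (adjusted p = 0.00543), and Cd3e, a signalling subunit, fell by 0.74 ± 0.10 (adjusted p = 0.000485). All 12 genes of a T cell list fell there, with a median of -0.66, and of 16 genes of receptor signalling 10 fell and 2 rose. In the knockout 6 of the 12 T cell genes fell, with a median of -0.44, and 3 of the 16 signalling genes. Cd3g, another subunit, fell by 0.76 ± 0.17 there (adjusted p = 0.0133), and Trac was at -0.37 ± 0.12 (adjusted p = 0.0747). Cd3e was at -0.10 ± 0.10 in the knockout (adjusted p = 0.635), and it differed between the genotypes in the effect of challenge (0.64 ± 0.14, adjusted p = 0.0429). In wild type 6 of 8 B cell genes rose with challenge, and 18 of 19 salivary genes fell. In the knockout 0 B cell genes rose, 1 fell, and 2 salivary genes rose.

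Beta variable counts were lower relative to beta constant region counts after challenge. The ratio of Trbv to Trbc1 plus Trbc2 counts was 0.234, 0.239 and 0.251 in KO_DTH, against 0.274, 0.279 and 0.283 in KO_se. It was 0.273, 0.283 and 0.229 in WT_DTH, against 0.299, 0.299 and 0.312 in WT_se. The ratio was lower in every challenged library than in every unchallenged library of its genotype. For alpha the states overlapped. The ratio of Trav to Trac counts was 0.324, 0.298 and 0.286 in KO_DTH, against 0.318, 0.338 and 0.342 in KO_se. It was 0.356, 0.359 and 0.288 in WT_DTH, against 0.369, 0.364 and 0.336 in WT_se. These ratios have no test, being sums over the members.

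Across the 12 libraries the genes with levels most like the summed Trav and Trbv level were Ift80, Cd96, Cd4, Itm2a and Thy1. Their Pearson correlations of log2 CPM were between 0.976 and 0.978, as a description over libraries that differ in their content of T cell RNA. Cd4 is the coreceptor of helper T cells, Thy1 is a surface protein of mouse T cells, and Cd96 is a receptor of T and natural killer cells.

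The number of calls on level with challenge differed between fits. With the mean log2 level of the salivary list as a covariate, 0 members were called in wild type and 1 in the knockout, while the median over members in wild type stayed at -0.83. The salivary score lay between -1.37 and -0.96 in WT_DTH and between 0.71 and 1.28 in WT_se, so it separated the wild-type states by itself. Scaled to the summed counts of 7 receptor complex genes, 4 were called in wild type and 0 in the knockout, with medians over members of -0.21 and -0.12. Left-out libraries also mattered. The wild-type count was 9 without WT_DTH replicate 1 or replicate 3, 11 without WT_se replicate 2 and 17 without WT_se replicate 1. The knockout count was 2 without KO_DTH replicate 1 or KO_se replicate 3, 4 without KO_se replicate 2 and 5 without KO_DTH replicate 2. It was 0 without the most salivary library of each group (an alternative chosen after seeing the data), and 6 with a replicate block.

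Few segment levels differed between genotypes. In KO_se relative to WT_se 2 of 113 members fell and 0 rose, where 5.17% of all genes were called, 3.76% being higher and 1.4% lower. Both were Trav segments of the n copies. Trav14n-1 stood at 1.13, 1.10 and 1.26 CPM in KO_se, against 3.54, 2.44 and 3.69 CPM in WT_se, without overlap (-1.47 ± 0.27, adjusted p = 0.00948). Trav10n stood at 0.590, 0.560 and 0.342 CPM in KO_se, against 2.27, 1.71 and 1.26 CPM in WT_se, without overlap (-1.81 ± 0.45, adjusted p = 0.0377). Trav14d-1, identical to Trav14n-1, had 66, 54 and 61 counts in KO_se, against 129, 94 and 33 counts in WT_se, with overlap. With copies of at least 95% identity joined, the 8 Trav14 copies fell (-0.72 ± 0.17, adjusted p = 0.0292). The 3 Trav10 copies did not pass when joined (-0.85 ± 0.25, adjusted p = 0.0673). The median over the 92 Trav was -0.27, and that over all members -0.23, against -0.01 over all genes. No Trbv segment was called, and their median was -0.11. Beside this, 4 of 16 receptor signalling genes and 2 of 12 T cell genes fell, and of 8 B cell genes 2 rose, with all 8 above 0. Their part in the result was not tested. The count was 1 when WT_se replicate 1 or 2, WT_DTH replicate 2 or any 1 KO_se replicate was left out, and Trav14n-1 remained called in all 12 such fits. It was 0 with the salivary covariate or without the most salivary library of each group.

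In KO_DTH relative to WT_DTH 0 of 113 members were called by edgeR, with 3 at an unadjusted p below 0.05, and 0 by DESeq2, where edgeR called 0.599% of all genes, 0.514% as higher and 0.0849% as lower. The median over members was 0.01. Trav14n-1 stood at 0.955, 0.956 and 0.868 CPM in KO_DTH, against 1.36, 1.85 and 1.60 CPM in WT_DTH, with a log2 difference of -0.79 ± 0.27 (adjusted p = 0.189).

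The other T cell lineage differed between genotypes where the alpha and beta segments mostly did not. Trdc, the delta constant region, was higher in the knockout by 1.89 ± 0.23 on the log2 scale in sensitized nodes (adjusted p = 0.00148) and by 1.59 ± 0.23 after challenge (adjusted p = 0.0122). Tcrg-C1, a gamma constant region, was higher by 2.97 ± 0.25 (adjusted p = 0.000144) and by 2.72 ± 0.25 (adjusted p = 0.000381). Trac was at -0.24 ± 0.12 in sensitized nodes (adjusted p = 0.264) and at 0.17 ± 0.12 after challenge (adjusted p = 0.607).

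Shares answer a second question, which is whether use moved between segments once the total was set aside. A segment's share is its part of the summed Trav or Trbv count of the library. It was tested in the same fit with that sum as the library size of the members. Genes outside the members kept their TMM-scaled library size, so percentages of all genes given beside shares describe levels of those genes. Averaged over both states, 3 of 113 members were called between knockout and wild type, where 4.79% of all genes were called, 3% being higher and 1.79% lower. Trav14n-1 and Trav10n were lower and Trav16n was higher in the knockout. The 6 knockout and 6 wild-type libraries did not overlap for 5 of 98 Trav segments (these 3, Trav8d-2 and Trav5-1). All 22 Trbv segments overlapped, and 2.02% of all genes did not. Trav5-1 was close to a tie, with 10 counts of 2198 in KO_DTH replicate 2 and 10 of 2199 in WT_DTH replicate 1. No Trbv share was called. The smallest Trbv adjusted p was that of Trbv3, with a mean share of 8.31 ± 0.793% in KO_DTH, 9.51 ± 0.377% in KO_se, 7.30 ± 0.713% in WT_DTH and 8.07 ± 0.437% in WT_se (SD, n = 3 each; 0.21 ± 0.08, adjusted p = 0.163).

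Trav14n-1 held 1.61, 1.77 and 1.45% of Trav counts in KO_DTH and 1.55, 1.36 and 1.35% in KO_se. It held 2.73, 2.66 and 3.15% in WT_DTH and 3.28, 2.11 and 4.13% in WT_se. Every knockout library lay below every wild-type library, and the log2 difference was -0.99 ± 0.21 (adjusted p = 0.0194). Because Trav14d-1 is identical to it, the pair is the better unit. Together the 2 held 3.25, 3.59 and 2.94% in KO_DTH and 3.18, 2.79 and 2.74% in KO_se. They held 5.55, 5.26 and 6.13% in WT_DTH and 6.73, 4.28 and 5.01% in WT_se, again without overlap. With identical copies joined, an alternative chosen after seeing the data, the pair differed by -0.84 ± 0.16 (adjusted p = 0.0114).

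The wider Trav14 group did not keep that call on share. Its 8 near-identical copies held 11.6, 14.5 and 12.4% in KO_DTH and 14, 12.7 and 13.8% in KO_se, against 13.9, 14.2 and 15.3% in WT_DTH and 18.2, 17.7 and 16.5% in WT_se. The challenged genotypes overlapped, and the Trav14 family as 1 unit was at -0.27 ± 0.09 (adjusted p = 0.0942). Without WT_se replicate 1 the adjusted p of Trav14n-1 alone was 0.0519, and without KO_se replicate 2 it was 0.0528. It was 0.219 without the most salivary library of each group.

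Trav10n held 1.10, 0.546 and 0.524% of Trav counts in KO_DTH and 0.813, 0.691 and 0.365% in KO_se. It held 1.64, 1.53 and 1.21% in WT_DTH and 2.11, 1.48 and 1.41% in WT_se, above every knockout library (-1.21 ± 0.31, adjusted p = 0.0456). The 3 Trav10 copies together overlapped between genotypes, with means of 3.03% in KO_DTH, 2.65% in KO_se, 3.12% in WT_DTH and 3.73% in WT_se (family -0.27 ± 0.15, adjusted p = 0.357). Trav16n held 2.28, 4.09 and 3.26% in KO_DTH and 3.45, 2.92 and 2.53% in KO_se. In WT_DTH it held 2.23, 1.68 and 1.35% and in WT_se 1.44, 1.97 and 1.68%, below every knockout library (0.84 ± 0.22, adjusted p = 0.0469). Together with Trav16, it held means of 4.97% in KO_DTH, 5.05% in KO_se, 3.80% in WT_DTH and 3.97% in WT_se (family 0.37 ± 0.15, adjusted p = 0.18). Trav10n and Trav16n each lost the call in 11 of 12 fits that left out 1 library, with adjusted p values up to 0.118 and 0.117.

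Sums along the alpha locus differed between genotypes in the n copies. The 28 n copies together held 28.9 ± 1.40% of Trav counts in KO_DTH and 27.8 ± 1.48% in KO_se, against 31.6 ± 1.08% in WT_DTH and 33.8 ± 1.65% in WT_se (SD, n = 3 each). The 6 knockout libraries lay between 26.9 and 30.3% and the 6 wild-type libraries between 30.9 and 35.6%, without overlap. Of the 27 tested n copies 17 had a lower share in the knockout, as had 21 of the 65 other tested Trav segments. The n copies include the called Trav14n-1 and Trav10n, which were lower, and Trav16n, which was higher. They also include Trav7n-4 and Trav6n-5 of the run described below, so the sum is not separate from these single results. Many n copies have an identical d copy, so the split between these blocks is uncertain. The d copies held 25.1% in KO_DTH, 22.7% in KO_se, 25.5% in WT_DTH and 23.0% in WT_se. The d and n copies together held 51.6, 53.3 and 57.1% in KO_DTH and 51.1, 51.4 and 49.0% in KO_se. They held 55.9, 55.8 and 59.8% in WT_DTH and 58.1, 56.7 and 55.8% in WT_se, so on this sum the genotypes overlapped through KO_DTH replicate 3. The 33 segments after the n copies held 43.3% in KO_DTH, 45.4% in KO_se, 40.6% in WT_DTH and 40.8% in WT_se, with overlap. These block sums have no test, and no test compared the blocks.

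A run of 5 neighbours at the border of the d and n copies, Trav8d-2, Trav13d-4, Trav7n-4, Trav6n-5 and Trav10n, was chosen after its values were seen and is given as a description. Together the 5 held 4.08, 2.18 and 2.90% of Trav counts in KO_DTH and 2.76, 2.44 and 3.24% in KO_se. They held 6.55, 6.21 and 5.02% in WT_DTH and 7.45, 5.74 and 5.49% in WT_se. Apart from Trav10n its tested members did not pass the test, with Trav8d-2 at -1.14 ± 0.33 (adjusted p = 0.0661), Trav7n-4 at -1.32 ± 0.39 (adjusted p = 0.0734) and Trav6n-5 at -0.85 ± 0.31 (adjusted p = 0.14). Trav13d-4 was below the filter on low counts.

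**Figure D5:**
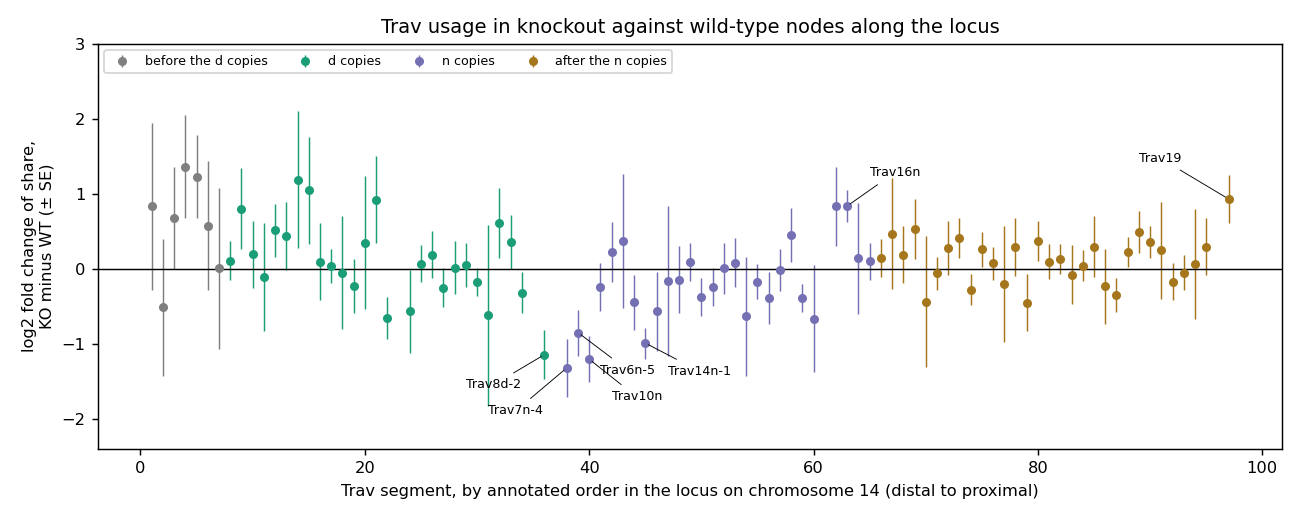
Log2 difference in share of Trav counts between knockout and wild type, averaged over both states, ± SE, for the tested Trav segments in locus order, coloured by block. Trav14n-1 and Trav10n lie below 0 and Trav16n above it as the 3 called segments, and the run that ends in Trav10n lies below 0.

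In the share fit challenge gave a call for a single member. Averaged over both genotypes 1 of 113 members was called, where 21.2% of all genes were called, 11.8% being higher and 9.44% lower. Trav14-1 held 1.61, 1.37 and 2.54% in KO_DTH and 2.56, 2.74 and 2.85% in KO_se, and 1.77, 1.53 and 1.07% in WT_DTH and 3.18, 3.79 and 2.05% in WT_se (-0.81 ± 0.23, adjusted p = 0.0263). Challenged libraries were mostly low, with overlap between the states. The call was lost in 7 of 12 fits that left out 1 library, with adjusted p values up to 0.0733. Trav14-1 is 1 of 8 near-identical copies, and the Trav14 family as 1 unit did not pass for challenge (-0.17 ± 0.09, adjusted p = 0.182). Libraries of the 2 states overlapped in share for every Trav and Trbv segment. Of all genes 9.23% had no overlap, with genes outside the members taken by level, so the 2 figures are unlike measures.

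Among beta segments Trbv12-1 came nearest to a call with challenge. Its share of Trbv counts was 5.89, 4.47 and 5.28% in KO_DTH, against 5.13, 5.10 and 3.70% in KO_se. In wild type it was 5.88, 5.28 and 5.68% in WT_DTH, against 3.03, 3.88 and 4.28% in WT_se. The wild-type groups did not overlap while the knockout groups did, and the averaged log2 difference was 0.38 ± 0.13 (adjusted p = 0.0545). Trbv12-2 was at 0.16 ± 0.09 (adjusted p = 0.241), and the 2 merged as a family differed by 0.24 ± 0.08 (adjusted p = 0.0372). Trbv13-2 held 9.48 ± 1.00% in KO_DTH, 9.56 ± 1.14% in KO_se, 10.6 ± 0.855% in WT_DTH and 10.3 ± 0.376% in WT_se (SD, n = 3 each; 0.02 ± 0.08 for challenge, adjusted p = 0.916).

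The effect of challenge on shares was also compared between genotypes. By edgeR's quasi-likelihood test 0 of 113 members were called for that difference, with 4 at an unadjusted p below 0.05, where 2.11% of all genes were called (1.67% higher and 0.439% lower). DESeq2 was not run on shares. The smallest adjusted p was 0.188, for Trav4n-4 (1.48 ± 0.55), followed by Trav14n-2 (1.70 ± 0.66, adjusted p = 0.21) and Trav6-1 (-2.50 ± 1.11, adjusted p = 0.284). Joined with their identical copies, the Trav4n-4 pair was at 0.81 ± 0.47 (adjusted p = 0.448) and the Trav14n-2 pair at 1.30 ± 0.47 (adjusted p = 0.177).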

How the data were processed

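RNA of mandibular lymph nodes was measured in 12 libraries. The authors deposited estimated counts per gene, all of them whole numbers, so nothing was rounded. Per the submitters' processing notes, fastp 0.23.2, HISAT2 2.2.1, StringTie 2.2.1 and GRCm39 were used; how multiply mapped reads were handled is not given in the sources used here. Names, segment annotation and transcript sequences came from GENCODE M21 on GRCm38 (51948 of 56941 IDs matched), so no coordinates are given.

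The test of levels was the quasi-likelihood test of edgeR 4.0.16 in R 4.3.3, with TMM scaling and 20034 genes kept by filterByExpr at a minimum count of 10. One model with a mean per group had 8 residual degrees of freedom. Two-sided p-values had Benjamini-Hochberg adjustment over all genes tested and a threshold of 0.05. Shares used the same fit with the summed count of the chain as library size of its members. Log2 values are ± SE of the model. Identity was aligned with Biopython 1.88. The fits were tested on simulated data.

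The members, gene lists and rules were chosen with earlier results of these data known. Named are segments of known partners or lineages, the 5 most used Trbv segments and up to 6 called per direction by smallest p. Of the Trav segments the 5 most used are not all named. Receptor complex genes and the 5 genes most like the summed level are named too. Others, such as Trav5-1, were named after their values were seen. Alternatives were DESeq2 1.42.0, its size factors, no filter, a replicate block, a salivary covariate, scaling to receptor complex genes, merged families and each library left out. Joined copies in the fits and the removal of the most salivary library of each group were added after seeing the data.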

Additional observations from a re-analysis of the deposited data

How the results depend on the processing

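No called segment reversed its direction under any alternative run that kept the segments separate. In KO_se against WT_se, the 2 called members became 1 with no filter, scaled to receptor complex genes, with near-identical copies joined or by DESeq2, and 0 with the salivary covariate or without the most salivary library of each group (4 libraries). In WT_DTH against WT_se, the 26 became 0 with the salivary covariate and 4 scaled to receptor complex genes. In KO_DTH against KO_se, the 9 became 1 with the salivary covariate, 0 scaled to receptor complex genes, 0 without those 4 libraries and 16 by DESeq2. In shares between genotypes, the 3 became 1 with no filter or the salivary covariate, and 0 with families merged, near-identical copies joined or those 4 libraries left out. In shares with challenge, the 1 became 0 under the last 2. The effective number of Trav segments, 71.8 on average, became 24.7 with near-identical copies joined, by construction. The cause of the others was not tested, apart from the smaller numbers of libraries.

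With each library left out, the level counts ranged over 1 to 2 (KO_se against WT_se), 0 to 0 (KO_DTH against WT_DTH), 9 to 28 (WT_DTH against WT_se), 2 to 9 (KO_DTH against KO_se) and 0 to 0 (their difference). The share counts ranged over 0 to 4 (genotype, with 0 without KO_se replicate 2 or WT_se replicate 1), 0 to 3 (challenge) and 0 to 0 (their difference).

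The labels do not say whether replicate numbers pair the samples, and the values showed no clear pairing. Of 18 pairs of libraries with the same number, the correlation of deviations from group means ranged from -0.0984 to 0.141, and 1 was above 0.1. Pairs with different numbers ranged from -0.0802 to 0.119. With a replicate block the level counts were 2, 0, 25, 6 and 0, and the share counts 2, 1 and 0, in the same orders.

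Low Trav counts limit single Trav segments, and intervals of the model cover neither misassigned reads nor RNA of other tissue.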
